A study of Mus musculus with 36 samples.

Results

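The last step of a mouse motor neuron differentiation, from day 6 to day 7, was compared in 6 of the 36 libraries of a time course, 3 at day 7 and 3 at day 6. The libraries were chosen by their labelled day alone. Both groups were HM1 mouse embryonic stem cells that had been grown in N2B27 medium with basic FGF and then with the Wnt activator CHIR99021 and the TGF-beta family inhibitors SB431542 and DMH1, which gives neuromesodermal progenitors. From day 0 both groups received 100 nM retinoic acid, which patterns the posterior nervous system, and 500 nM of the Smoothened agonist SAG, which turns Hedgehog signalling on. The medium was renewed each day. Day 7 cells and day 6 cells therefore differed by 24 hours under the same 2 agents, and no culture without retinoic acid and SAG is part of the comparison. The labels call both groups neural progenitor cells of 1 line and do not say how separate the 3 biological replicates of a day were. The p-values therefore rest on the spread of these 6 samples and of the rest of the course, part of which may be technical.

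Progenitors of the ventral spinal cord make neurons first and glia later. The same Olig2-positive progenitors that give rise to motor neurons turn afterwards to oligodendrocyte precursors, which carry Pdgfra and Sox10, pass through a committed stage marked by Gpr17 and Bcas1, and end as myelin-making oligodendrocytes. Notch signalling keeps progenitors from differentiating, proneural factors such as Neurog2 overcome it, and newborn neurons leave the cell cycle and then build synapses.

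Day 7 libraries held 33570760, 32031485 and 31986574 counts and day 6 libraries 28936716, 28787829 and 34380425, within the 26567321 to 35757989 of the whole course. Mitochondrial genes took 1.74% to 1.83% of the counts at day 7 and 1.37% to 1.68% at day 6. All 8 markers chosen for the labelled cell type were present. Sox2 averaged 174 ± 6.37 TPM at day 7, against 206 ± 18.2 TPM at day 6, and Nes 160.5 ± 5.48 TPM at day 7, against 231 ± 6.51 TPM at day 6 (mean ± SD, n = 3 libraries each, as for all means that follow). Pax6 was the lowest of them, at 1.05 ± 0.27 TPM at day 7, against 1.09 ± 0.27 TPM at day 6. Markers of neurons were high beside them, with Tubb3 at 1121 ± 42.8 TPM at day 7, against 923 ± 78.8 TPM at day 6, so both groups also held RNA of neurons. In bulk RNA of this kind, fewer cells of a type and less RNA per cell cannot be told apart.

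At day 7, 2034 of 17990 genes rose (11.3%) and 1610 fell (8.95%), in all 20.3% of the genes tested, with edgeR's quasi-likelihood test at a Benjamini-Hochberg adjusted p under 0.05. These shares are the background for the counts of every gene list below. Most changes were small: 184 genes rose at least 2-fold (1.02%) and 112 fell at least 2-fold (0.623%), and the median log2 fold change over all genes was 0.00. Log2 fold changes are day 7 over day 6 on the count scale, with an approximate standard error after the ± sign, and TPM is a level corrected for gene length and for the library's total. In 3305 genes (18.4%) all 3 day 7 libraries were, in CPM (counts scaled to the library total), above all 3 day 6 libraries, and in 2635 (14.6%) all were below, so the days did not overlap in 5940 genes (33%). A test on log2(TPM + 0.1) gave 1062 higher and 1420 lower genes, so the share of higher genes among the calls was 42.8% there, against 55.8% in the count test.

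**Figure D1:**
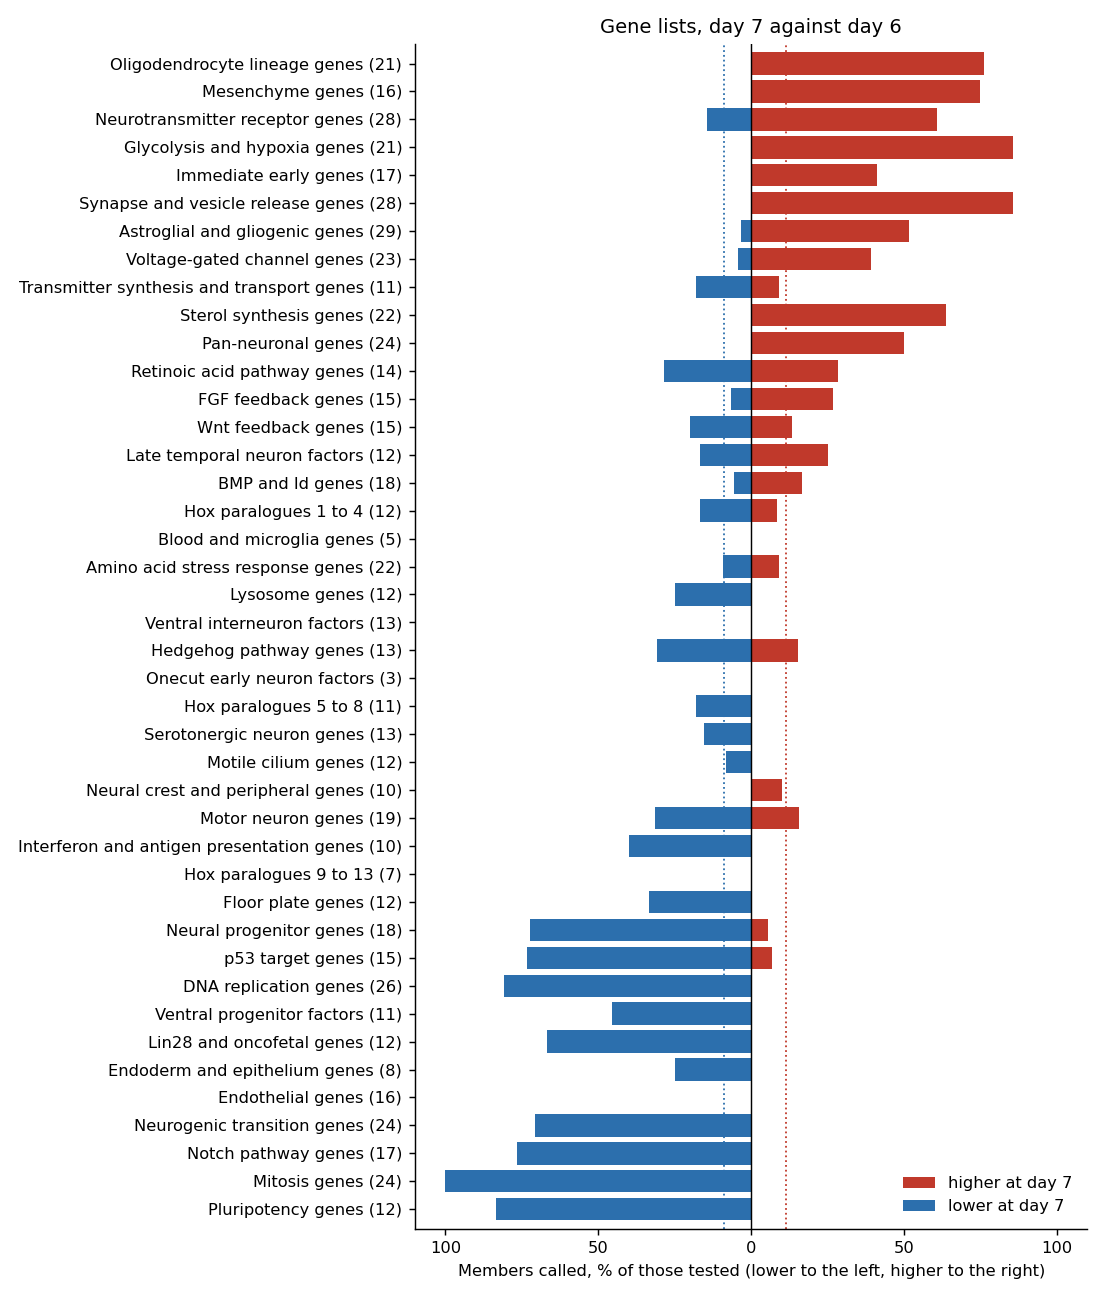
Percent of the tested members of each gene list that fell at day 7 against day 6 (blue, to the left) or rose (red, to the right); the number of members tested is in parentheses, lists are ordered by median log2 fold change, and dotted lines mark the 11.3% of all genes that rose and the 8.95% that fell. All 24 mitosis genes fell, and 16 of 21 oligodendrocyte genes and 24 of 28 synapse genes rose.

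Genes of the oligodendrocyte lineage, the glia that make myelin, rose. Of 21 lineage genes tested, 16 rose, 0 fell and 5 did not pass, with a median log2 fold change of 0.83 beside 0.00 for all genes. Their summed level was 377, 361 and 360.3 TPM in the day 7 libraries, against 191, 232 and 277 TPM in the day 6 libraries. The groups did not overlap, and the day 6 libraries were more spread than the day 7 libraries, with replicate 3 the highest of day 6.

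Genes known for the committed stage, between precursor and myelin-forming cell, are given first, a grouping made after their values were seen. Bcas1, a protein of newly formed oligodendrocytes (chromosome 2, 170346991 to 170427845, minus strand in GRCm38), was at 12.5, 12.9 and 12.3 TPM in the day 7 libraries, against 0.46, 0.60 and 0.76 TPM in the day 6 libraries (log2 fold change 4.52 ± 0.25, adjusted p = 4.7e-14). It was moderate and even in the day 7 libraries and under 1 TPM in each day 6 library. Gpr17, a receptor of committed precursors, was at 31.6, 28.7 and 30.4 TPM at day 7, against 7.8, 11.1 and 15.1 TPM at day 6 (log2 fold change 1.44 ± 0.14, adjusted p = 3.4e-09). Myrf, the transcription factor that switches on myelin genes (chromosome 19, 10208272 to 10240748, minus strand), was at 6.49, 7.05 and 6.47 TPM at day 7, against 2.24, 2.85 and 3.38 TPM at day 6 (log2 fold change 1.40 ± 0.11, adjusted p = 3.3e-11). Every day 7 value of these 3 genes was above every day 6 value, and in Gpr17 and Myrf day 6 replicate 3 came nearest to day 7. Enpp6, an enzyme of newly formed oligodendrocytes, rose with a log2 fold change of 1.45 ± 0.28 and reached 1.32, 1.31 and 0.97 TPM at day 7, against 0.37, 0.61 and 0.33 TPM at day 6. Zfp488, a repressor that works with Olig2, rose by 2.30 ± 0.39 (log2) to 1.85, 1.59 and 1.32 TPM at day 7, against 0.22, 0.31 and 0.44 TPM at day 6.

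Among genes known for precursors, Sox10, the lineage factor that precursors keep through life, was at 29.1, 27.2 and 29.2 TPM at day 7, against 11, 15.7 and 20.9 TPM at day 6 (log2 fold change 0.87 ± 0.17, adjusted p = 0.00025). On log2(TPM + 0.1) its adjusted p was 0.057. Pdgfra, the receptor for the growth factor that drives precursor division, was at 12.4, 10.2 and 10.3 TPM at day 7, against 6.82, 6.65 and 7.48 TPM at day 6 (log2 fold change 0.63 ± 0.12, adjusted p = 0.00028). Olig1, partner of Olig2, was at 29.2, 30.8 and 29.8 TPM at day 7, against 13.7, 18.2 and 26.7 TPM at day 6 (log2 fold change 0.63 ± 0.12, adjusted p = 0.00023). In all 3 genes the days did not overlap. Olig2 itself, which marks motor neuron progenitors as well as oligodendrocyte precursors, was at 47.6, 44.2 and 44.4 TPM at day 7, against 32.2, 39.3 and 53.3 TPM at day 6 and did not pass (log2 fold change 0.14 ± 0.11, adjusted p = 0.4). Its day 7 values lay inside the day 6 range, in which replicate 3 was the highest, and without that library Olig2 was called higher at an adjusted p of 0.015. The matrix proteins Tnr and Matn4 rose by 1.32 ± 0.12 and 1.34 ± 0.18 (log2) and the membrane protein Lhfpl3 by 0.80 ± 0.21, the last with an adjusted p of 0.057 without day 6 replicate 1. Cspg4, the NG2 proteoglycan, was at 0.30 ± 0.04 TPM at day 7, against 0.23 ± 0.05 TPM at day 6 (adjusted p = 0.6). Sox6, a factor that holds precursors back from maturing, was at 41.1 ± 3.02 TPM at day 7, against 46.9 ± 4.6 TPM at day 6 (log2 fold change -0.17 ± 0.07, adjusted p = 0.079). Sox6 was called lower in 3 of the 14 alternatives, among them the fit with only the 6 libraries (adjusted p = 0.037) and the fit without day 6 replicate 1 (adjusted p = 0.04).

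Among genes of myelin, Mbp, the main protein of compact myelin, was at 51.2, 49.6 and 49.6 TPM in the day 7 libraries, against 16.8, 20.3 and 23.1 TPM in the day 6 libraries (log2 fold change 0.83 ± 0.05, adjusted p = 2e-13). On the TPM scale the ratio of its means was 1.32 (log2), against 0.83 on the count scale. TPM divides by the length of the transcripts the authors' quantification assigned, and the Mbp locus also makes the longer Golli transcripts, whose part was not tested. Cnp, a myelin enzyme that precursors already make, was at 85.6, 77 and 78.8 TPM at day 7, against 44.5, 50.1 and 61.1 TPM at day 6 (log2 fold change 0.67 ± 0.08, adjusted p = 1.2e-07). Cldn11, a tight junction protein of myelin, was at 4.19, 3.63 and 4.11 TPM at day 7, against 1.25, 1.05 and 1.73 TPM at day 6 (log2 fold change 1.57 ± 0.28, adjusted p = 7.2e-05). In these 3 genes every day 7 library was above every day 6 library. Mag, an adhesion protein of the inner myelin membrane, rose by 2.25 ± 0.49 (log2) and reached 1.2, 0.62 and 1.15 TPM at day 7, against 0.14, 0.12 and 0.17 TPM at day 6. Ugt8a, the enzyme for myelin galactolipids, was at 3.68 ± 0.35 TPM at day 7, against 2.79 ± 0.30 TPM at day 6 (adjusted p = 0.053) and passed with DESeq2 (adjusted p = 0.043) and on log2(TPM + 1) (adjusted p = 0.036). Mobp was at 0.09 ± 0.07 TPM at day 7, against 0.30 ± 0.20 TPM at day 6 (adjusted p = 0.26; called lower on log2(TPM + 0.1), adjusted p = 0.013). Mog, a marker of mature cells, had too few counts to be tested.

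**Figure D2:**
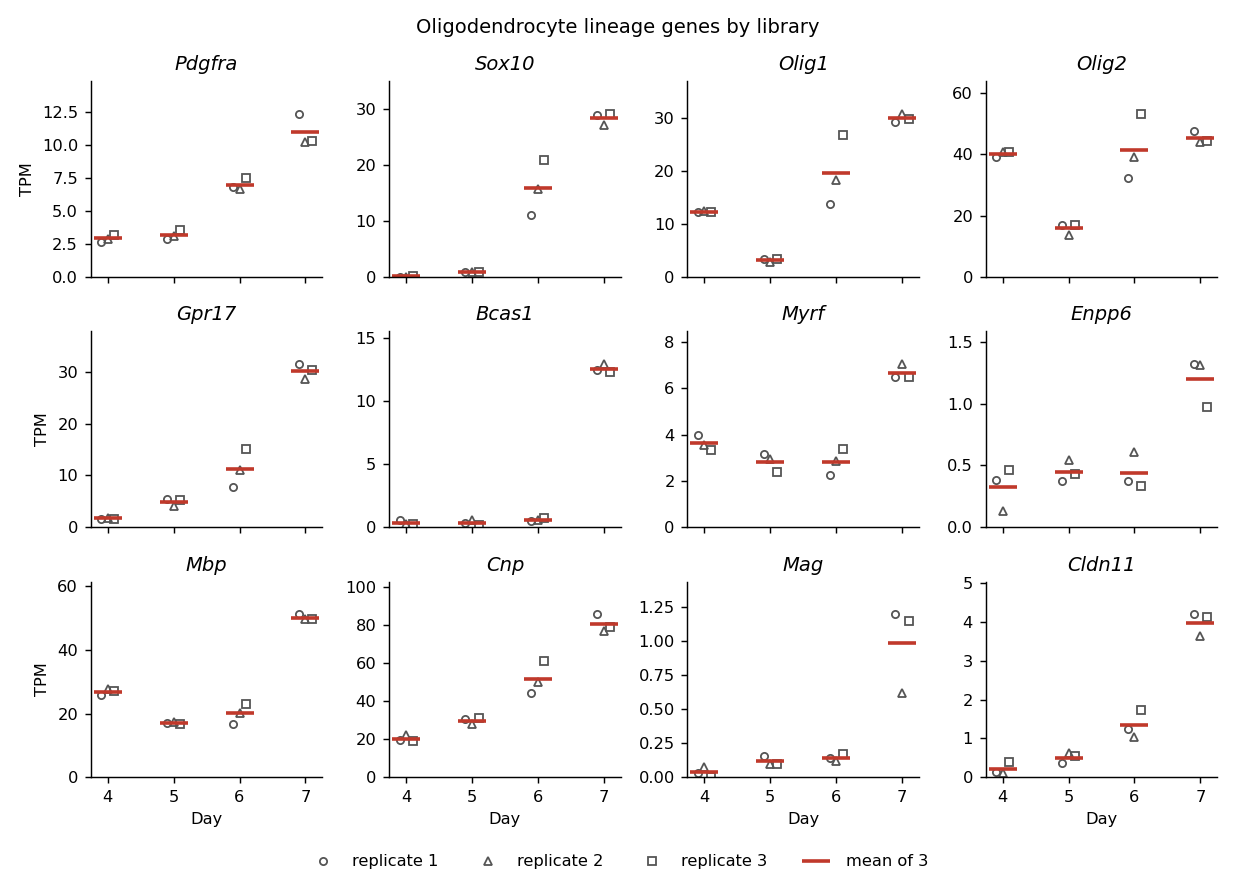
TPM of 12 oligodendrocyte lineage genes in each library at days 4, 5, 6 and 7 (symbols, replicates 1 to 3; red bar, mean of 3), each panel with its own axis from 0. Bcas1, Myrf and Enpp6 at day 7 lie above the other 3 days, Sox10 and Gpr17 are higher at day 6 than at day 5 and higher again at day 7, and Olig2 at day 7 lies within the spread of day 6.

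At the step before, genes known for each of these stages were called higher. Sox10 had a log2 fold change of 4.07 at day 6 against day 5 (adjusted p = 4.6e-16), Olig1 of 2.52 (adjusted p = 4.2e-15), Olig2 of 1.28 (adjusted p = 7.1e-11) and Pdgfra of 0.99 (adjusted p = 1.4e-07). Gpr17 had 1.09 (adjusted p = 2e-07), Bcas1 2.03 (adjusted p = 0.00015), Cnp 0.70 (adjusted p = 1.2e-08) and Cldn11 1.31 (adjusted p = 0.0014). The value of Bcas1 rests on few counts. It was at 0.46, 0.60 and 0.76 TPM at day 6, against 0.31, 0.53 and 0.20 TPM at day 5, with overlapping days. Over the same earlier step Myrf had -0.15 (adjusted p = 0.33), Enpp6 0.05 (adjusted p = 0.92) and Mbp 0.03 (adjusted p = 0.67). Both steps share the day 6 libraries, so the values are set side by side and the difference between them was not tested. Sox10 also marks neural crest and Schwann cells, and of 10 crest and peripheral genes tested it was the only one called. Tfap2a, a crest factor, was at 0.11 ± 0.03 TPM at day 7, against 0.15 ± 0.06 TPM at day 6.

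Genes of astroglia, the other glial branch, rose in part. Of 29 tested, 15 rose, 1 fell and 13 did not pass (median log2 fold change 0.33), and on log2(TPM + 0.1) 7 rose. With no filter on low counts 4 fell, and without day 6 replicate 1 it was 2. Bcan, a proteoglycan of the glial matrix, was at 14.7, 13.1 and 14.3 TPM in the day 7 libraries, against 4.97, 5.49 and 6.58 TPM in the day 6 libraries (log2 fold change 1.45 ± 0.13, adjusted p = 3.5e-10). Aldoc, the brain aldolase, was at 176, 171 and 148 TPM at day 7, against 68.2, 86.5 and 96.6 TPM at day 6 (log2 fold change 1.00 ± 0.09, adjusted p = 1.3e-09). S100b, a calcium-binding protein of glia, was at 2.13, 1.77 and 2.67 TPM at day 7, against 0.42, 0.30 and 0.54 TPM at day 6 (log2 fold change 2.37 ± 0.38, adjusted p = 0.00011). Days did not overlap in any of the 3. Sparcl1, a secreted synapse-promoting protein, averaged 182 ± 14.6 TPM at day 7, against 122 ± 23.3 TPM at day 6 (log2 fold change 0.59 ± 0.09). The glutamate transporter Slc1a3 averaged 109 ± 5.73 TPM at day 7, against 84.9 ± 5.36 TPM at day 6 (log2 fold change 0.39 ± 0.04). Bcan, S100b and Sox8 are also made by cells of the oligodendrocyte lineage.

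Of 3 factors of gliogenesis, Nfia, Nfib and Nfix, Nfix alone passed. Nfia, the factor that starts it in the spinal cord, was at 96.3, 98.5 and 92.5 TPM at day 7, against 80.4, 80.5 and 90.0 TPM at day 6 (log2 fold change 0.07 ± 0.05, adjusted p = 0.41). Nfib averaged 31.6 ± 1.63 TPM at day 7, against 28.7 ± 3.63 TPM at day 6 (adjusted p = 0.3). Fabp7, a fatty acid binding protein of radial glia and the most abundant gene of the list, was at 3268, 3111 and 3186 TPM at day 7, against 2959, 2915 and 3143 TPM at day 6 (log2 fold change 0.10 ± 0.05, adjusted p = 0.18). In TPM the days overlapped, with day 7 replicate 2 below day 6 replicate 3, and the test did not pass. Nfix alone of the 3 factors rose, to 41.1, 39.8 and 39 TPM at day 7, against 23.5, 34.9 and 31.9 TPM at day 6 (log2 fold change 0.42 ± 0.10). It did not pass on log2(TPM + 1) (adjusted p = 0.15) or log2(TPM + 0.1) (adjusted p = 0.39). Sox9 was the 1 member that fell, at 83, 83.5 and 85.7 TPM at day 7, against 84.5, 102 and 114 TPM at day 6 (log2 fold change -0.23 ± 0.08, adjusted p = 0.042), with overlapping days. The call of Sox9 was lost at an adjusted p of 0.11 with limma on log2(TPM + 0.1), 0.084 with limma on log2(TPM + 1), 0.058 with only the 6 libraries, 0.053 with the replicate number as a block, 0.089 without day 6 replicate 2, 0.29 without day 6 replicate 3, 0.11 without day 7 replicate 1, 0.11 without day 7 replicate 2 and 0.06 without day 7 replicate 3. Aldh1l1, an astrocyte folate enzyme, rose by 0.44 ± 0.09 (adjusted p = 0.057 on log2(TPM + 1) and 0.13 on log2(TPM + 0.1)). Markers of mature astrocytes were low, and neither passed. Gfap averaged 0.12 ± 0.11 TPM at day 7, against 0.19 ± 0.14 TPM at day 6, while its log2 fold change in counts had the other sign (0.40 ± 0.87, adjusted p = 0.81). The water channel Aqp4 averaged 1.05 ± 0.15 TPM at day 7, against 1.19 ± 0.20 TPM at day 6.

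Cell division genes fell. All 24 mitosis genes tested fell, with a median log2 fold change of -0.78 and a range of -1.19 to -0.42, and in each of them every day 7 library was below every day 6 library. The summed level was 592, 573 and 693 TPM at day 7, against 1145, 1043 and 1045 TPM at day 6. Cenpf, a kinetochore protein, was at 11.1, 9.46 and 10.4 TPM in the day 7 libraries, against 27.5, 25.6 and 18.2 TPM in the day 6 libraries (log2 fold change -1.19 ± 0.09, adjusted p = 1.1e-11). Mki67, the Ki-67 protein of cycling cells, was at 17.7, 16.5 and 19.3 TPM at day 7, against 31.6, 37.3 and 30.3 TPM at day 6 (log2 fold change -0.87 ± 0.09, adjusted p = 4.1e-09). Top2a, the topoisomerase that untangles sister chromatids (chromosome 11, 98992943 to 99024189, minus strand), was at 77, 75.8 and 95.3 TPM at day 7, against 139.6, 131 and 132 TPM at day 6 (log2 fold change -0.67 ± 0.06, adjusted p = 8.8e-10). Within day 7, replicate 3 was the highest for the summed level. Ccnb2, a mitotic cyclin, fell by 0.89 on the log2 scale and Cdc20, which starts anaphase, by 0.92. Further mitotic genes stood among the 12 largest falls with a clear level: Knstrn, a spindle protein, fell by 1.10 and Pttg1, securin, by 1.10 on the log2 scale.

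DNA replication genes fell as well. Of 26 tested, 21 fell and 0 rose (median log2 fold change -0.29), and their summed level was 664, 640.5 and 725 TPM at day 7, against 887, 809.9 and 846 TPM at day 6. Rrm2, a subunit of the enzyme that makes deoxynucleotides, was at 37.7, 37.3 and 46.7 TPM at day 7, against 64.7, 60.5 and 61.3 TPM at day 6 (log2 fold change -0.52 ± 0.08, adjusted p = 5.5e-06). The helicase subunit Mcm7 was at 71.8, 67.2 and 70.8 TPM at day 7, against 98.3, 88.7 and 95.1 TPM at day 6 (log2 fold change -0.39 ± 0.05, adjusted p = 1.8e-06). Both were lower in every day 7 library. The members that did not pass were the licensing factor Cdc6 (log2 fold change 0.04 ± 0.10), the cyclins Ccne1 (0.08 ± 0.09) and Ccne2 (-0.23 ± 0.11), the clamp loader subunit Rfc3 (0.00 ± 0.07) and thymidylate synthase Tyms (-0.22 ± 0.08). Tyms was called lower in 7 of the 14 alternatives, including those without day 6 replicate 2, day 6 replicate 3 or day 7 replicate 3 (adjusted p = 0.023, 0.031 and 0.0055). Whether the lists differed in their change was not tested.

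Promoters of mitosis genes are known for a cell cycle homology region, which the DREAM complex binds to silence them in resting cells, and for CCAAT boxes bound by NF-Y. In the RefSeq promoters (GRCm38.p6, 250 bases before to 50 after the start), the 6-base form TTTGAA, read on both strands, was present for 15 of the 20 mitosis genes that matched (75%), for 2 of 20 replication genes (10%) and in 17.9% of all 32851 promoters. CCAAT, on both strands, was present for 17 of 20 mitosis genes (85%), 13 of 20 replication genes (65%) and 37.4% of all promoters. A gene counts here if any of its promoters held the letters, and some genes have several, so the shares of genes and of promoters are not on quite the same footing. The promoters of 3 mitosis genes are shown as examples, with TTTGAA and CCAAT or their reverse complements in capitals. Each of these genes was lower in every day 7 library and carries both motifs. No rule set them apart from other mitosis genes of which the same is true, Kif11 among them. They are Cdc20 at chr4:118437294-118437593 (minus strand), Ccnb2 at chr9:70421505-70421804 (minus strand) and Top2a at chr11:99024140-99024439 (minus strand), each written in the direction of transcription.
Cdc20: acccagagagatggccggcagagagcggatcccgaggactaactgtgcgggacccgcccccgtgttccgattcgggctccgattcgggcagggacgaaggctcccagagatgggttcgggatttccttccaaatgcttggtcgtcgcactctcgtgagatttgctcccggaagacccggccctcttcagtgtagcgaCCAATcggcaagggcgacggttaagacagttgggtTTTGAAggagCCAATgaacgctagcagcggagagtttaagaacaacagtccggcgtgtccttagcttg
Ccnb2: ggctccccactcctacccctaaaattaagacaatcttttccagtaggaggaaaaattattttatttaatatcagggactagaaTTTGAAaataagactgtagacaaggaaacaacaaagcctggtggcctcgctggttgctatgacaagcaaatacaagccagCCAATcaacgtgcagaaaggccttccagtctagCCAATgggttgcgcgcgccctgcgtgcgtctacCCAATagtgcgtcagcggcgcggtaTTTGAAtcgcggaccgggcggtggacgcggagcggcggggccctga
Top2a: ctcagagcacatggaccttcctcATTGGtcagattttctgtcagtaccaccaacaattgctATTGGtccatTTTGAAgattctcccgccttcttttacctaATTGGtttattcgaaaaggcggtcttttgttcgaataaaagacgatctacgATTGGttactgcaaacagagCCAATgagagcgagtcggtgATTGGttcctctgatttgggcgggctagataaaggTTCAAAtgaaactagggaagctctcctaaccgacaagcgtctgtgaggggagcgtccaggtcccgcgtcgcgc
In Cdc20 the TTTGAA run begins 18 bases before the start. In Top2a TTTGAA begins 179 bases and its reverse complement 23 bases before the start. In Ccnb2 a run begins 167 bases before the start and the other 4 bases after it. The motifs were chosen after the fall had been seen, and a match of letters is a description and not a bound site.

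Targets of p53, the transcription factor that halts damaged cells, fell as well, 11 of 15 with 1 higher (median log2 fold change -0.27). Without day 7 replicate 1, 7 fell. Beside them, 8.95% of all genes fell and 11.3% rose. Cdkn1a, the cell cycle inhibitor p21, was at 85.2, 85.1 and 87.4 TPM at day 7, against 125, 107 and 105 TPM at day 6 (log2 fold change -0.38 ± 0.06, adjusted p = 3.4e-05). The death genes Bbc3 and Eda2r fell by 0.53 and 0.53 on the log2 scale. The mitosis genes and this inhibitor of division were lower in the same libraries. Lin28 and oncofetal genes, a set of RNA-binding proteins and growth genes of the embryo, fell in 8 of 12 members with 0 higher (median -0.31). Hmga2, a chromatin protein of young progenitors, was at 11.6, 10.9 and 13.2 TPM at day 7, against 17.5, 15.3 and 18.5 TPM at day 6 (log2 fold change -0.51 ± 0.07, adjusted p = 2.3e-06). Igf2bp1, an RNA-binding protein, fell by 0.52 on the log2 scale. Igf2, a fetal growth factor, averaged 776 ± 7.25 TPM at day 7, against 735 ± 24 TPM at day 6 (log2 fold change 0.12 ± 0.11, adjusted p = 0.5). H19, a non-coding RNA of the same imprinted locus, averaged 232 ± 3.5 TPM at day 7, against 320.2 ± 11.9 TPM at day 6 (log2 fold change -0.44 ± 0.13, adjusted p = 0.01).

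Notch signalling genes fell across the pathway. Of 17 tested, 13 fell and 0 rose (median log2 fold change -0.36; 1 rose with DESeq2, with median-of-ratios scaling, with no filter on low counts or without day 6 replicate 2), and their summed level was 575, 574 and 537 TPM at day 7, against 693, 747 and 752 TPM at day 6. Of the ligands, Dll1, made by cells about to become neurons, was at 36.6, 36.6 and 35.6 TPM at day 7, against 55.1, 57.8 and 66.1 TPM at day 6 (log2 fold change -0.64 ± 0.05, adjusted p = 1.1e-11). Of the receptors, Notch1 was at 37.5, 36.7 and 37.2 TPM at day 7, against 44.7, 59.2 and 56.3 TPM at day 6 (log2 fold change -0.50 ± 0.07, adjusted p = 1.7e-06). Of the targets, Hes5, a repressor that holds progenitors undifferentiated (chromosome 4, 154960923 to 154962371, plus strand), was at 12.6, 13.4 and 9.72 TPM in the day 7 libraries, against 24.6, 28 and 26.2 TPM in the day 6 libraries (log2 fold change -1.11 ± 0.13, adjusted p = 1.8e-07). Nrarp, a feedback inhibitor that Notch induces, was at 26.8, 25 and 27.2 TPM at day 7, against 41.9, 43.1 and 50.6 TPM at day 6 (log2 fold change -0.76 ± 0.07, adjusted p = 1.1e-09). Hes1, a sister repressor, averaged 73 ± 5.19 TPM at day 7, against 96.2 ± 7.31 TPM at day 6 (log2 fold change -0.36 ± 0.05). In all of these the days did not overlap. Hes5 had a log2 fold change of -0.81 at day 6 against day 5 (adjusted p = 2.3e-07).

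The Hes5 promoter is a classical target of RBPJ, the DNA-binding partner of Notch, and is shown at chr4:154960673-154960972 (plus strand) in GRCm38.p6, RefSeq, with the RBPJ core TGGGAA or its reverse complement in capitals.
Hes5: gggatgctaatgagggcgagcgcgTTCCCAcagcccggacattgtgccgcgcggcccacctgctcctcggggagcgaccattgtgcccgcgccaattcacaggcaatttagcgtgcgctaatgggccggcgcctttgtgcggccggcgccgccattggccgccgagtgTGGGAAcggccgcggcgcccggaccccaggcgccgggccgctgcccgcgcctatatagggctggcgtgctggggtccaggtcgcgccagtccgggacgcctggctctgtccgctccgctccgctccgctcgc
The reverse complement begins 226 bases and TGGGAA 82 bases before the start. On both strands TGGGAA was present for 5 of the 14 Notch pathway genes with a promoter (35.7%) and in 25.6% of all promoters, with the pathway genes counted over any of their promoters.

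Genes that act as progenitors turn into neurons fell in 17 of 24 members, with 0 higher (median log2 fold change -0.35; 1 higher with no filter on low counts, on log2(TPM + 1) or without day 6 replicate 3). Neurog3, a proneural factor found next to the floor plate in the embryonic spinal cord, was at 59.4, 54.9 and 57.8 TPM in the day 7 libraries, against 118, 122 and 127 TPM in the day 6 libraries (log2 fold change -1.06 ± 0.10, adjusted p = 3.4e-09). Neurog2, which drives motor neuron birth, was already low and was at 1.2, 0.98 and 1.2 TPM at day 7, against 2.67, 3.8 and 4.79 TPM at day 6 (log2 fold change -1.73 ± 0.24, adjusted p = 1.7e-06). Neurod4, a factor of cells just leaving the cycle, was at 11.9, 10.4 and 10.7 TPM at day 7, against 19.9, 20.5 and 28.5 TPM at day 6 (log2 fold change -1.04 ± 0.11, adjusted p = 5.9e-09). In each of them every day 7 library was below every day 6 library. Insm1, a zinc finger factor of newborn neurons, fell by 0.59 and Gadd45g by 0.57 on the log2 scale. Dll1 is a member of both this list and the Notch list, so its fall is counted in each.

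Progenitor genes fell in 13 of 18 members, with 1 higher (median log2 fold change -0.24), and the 8 label markers were all among those that fell. Nes, an intermediate filament of progenitors, was at 166, 160.4 and 155 TPM at day 7, against 224, 236 and 233 TPM at day 6 (log2 fold change -0.51 ± 0.05, adjusted p = 9e-10). Sox2, the factor that keeps progenitors dividing, was at 179, 176 and 167 TPM at day 7, against 191, 201 and 226 TPM at day 6 (log2 fold change -0.23 ± 0.05, adjusted p = 0.0011). Sox3, its relative, fell by 0.60 on the log2 scale. The days did not overlap in these genes, and the level of Sox2 remained high at both days. Pax6 fell by 0.68 ± 0.22 in counts (adjusted p = 0.029), but the ratio of its TPM means was -0.04 (log2). The call of Pax6 was lost at an adjusted p of 0.92 with limma on log2(TPM + 0.1), 0.94 with limma on log2(TPM + 1), 0.17 with only the 6 libraries, 0.14 with only the 6 libraries and the replicate number as a block, 0.23 without day 6 replicate 3, 0.058 without day 7 replicate 1 and 0.27 without day 7 replicate 2. Without day 7 replicate 3, Sox1 did not pass (adjusted p = 0.071). Prom1, a membrane protein of progenitor cilia, was the member that rose, at 301, 318 and 259 TPM at day 7, against 245, 242 and 241 TPM at day 6 (log2 fold change 0.25 ± 0.05, adjusted p = 0.00023; adjusted p = 0.06 with only the 6 libraries). Without day 6 replicate 3, 2 members rose. Hes5 and Notch1 are members of both this list and the Notch list.

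**Figure D3:**
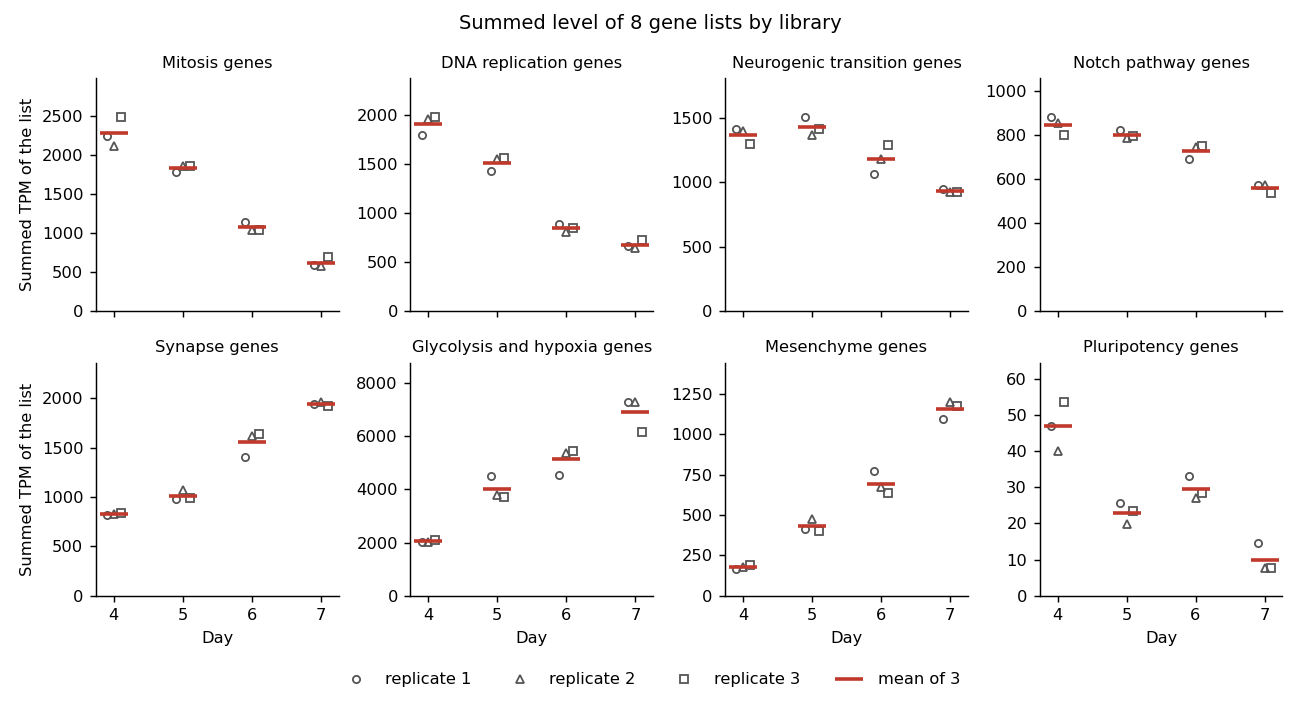
Summed TPM of 8 gene lists in each library at days 4, 5, 6 and 7 (symbols, replicates 1 to 3; red bar, mean of 3), each panel with its own axis from 0. Mitosis, replication, neurogenic and Notch sums are lower at day 7 than at day 6 and synapse, glycolysis and mesenchyme sums are higher, with no overlap between those days.

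Neuronal genes rose, in the general list and in that of the synapse. Of 24 pan-neuronal genes, 12 rose and 0 fell (median log2 fold change 0.19). Mapt, the axonal protein tau, was at 294, 290.1 and 311 TPM in the day 7 libraries, against 159, 206 and 210.4 TPM in the day 6 libraries (log2 fold change 0.64 ± 0.08, adjusted p = 7.9e-07). Tubb3, neuronal tubulin, was at 1101, 1092 and 1170.2 TPM at day 7, against 842, 929 and 999 TPM at day 6 (log2 fold change 0.30 ± 0.06, adjusted p = 0.00076). Both were higher in every day 7 library. Dpysl3, a protein of growing axons, rose by 0.38 ± 0.06 and Stmn2, another, by 0.30 ± 0.06 (log2). The RNA-binding protein Elavl3 averaged 149 ± 7.42 TPM at day 7, against 142 ± 18.7 TPM at day 6 (adjusted p = 0.29).

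Of 28 genes of the synapse and of vesicle release, 24 rose and 0 fell (median log2 fold change 0.38), and 11 rose on log2(TPM + 0.1). Their summed level was 1945, 1966 and 1927 TPM at day 7, against 1405, 1621 and 1639.9 TPM at day 6, where replicate 1 was the lowest. Sv2a, a vesicle glycoprotein, was at 62.3, 64.4 and 61.3 TPM in the day 7 libraries, against 33.4, 41.4 and 45.1 TPM in the day 6 libraries (log2 fold change 0.59 ± 0.08, adjusted p = 1.3e-06). Camk2b, a kinase of the postsynapse, was at 77.7, 87.2 and 76.3 TPM at day 7, against 49.8, 57 and 52.5 TPM at day 6 (log2 fold change 0.59 ± 0.06, adjusted p = 3.3e-09). Days did not overlap in either gene. Rab3a, a vesicle GTPase, rose by 0.41 ± 0.06 (log2). Snap25, the fusion protein of the panel, was at 72.2, 74.8 and 68.3 TPM at day 7, against 48.4, 62 and 62.8 TPM at day 6 (log2 fold change 0.35 ± 0.09, adjusted p = 0.0048). This call was lost at an adjusted p of 0.17 with limma on log2(TPM + 0.1), 0.076 with limma on log2(TPM + 1) and 0.065 without day 6 replicate 1.

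Neurotransmitter receptor genes rose in 17 of 28 members and fell in 4 (median log2 fold change 0.50), and 7 rose on log2(TPM + 0.1). Gria1, an AMPA receptor subunit, was at 24.3, 21.6 and 22.8 TPM at day 7, against 12.7, 15.5 and 14.3 TPM at day 6 (log2 fold change 0.76 ± 0.11, adjusted p = 2.7e-06; adjusted p = 0.051 on log2(TPM + 0.1)). Gria4, another, was at 26.9, 25.3 and 26.6 TPM at day 7, against 15.8, 19.9 and 19.1 TPM at day 6 (log2 fold change 0.53 ± 0.08, adjusted p = 3.2e-06), and the NMDA receptor subunits Grin1 and Grin3a rose by 0.68 ± 0.11 and 1.12 ± 0.17 (log2; Grin1 had an adjusted p of 0.067 on log2(TPM + 0.1)). The day 7 values of Gria1 and Gria4 lay above all day 6 values. The 4 that fell were the nicotinic subunits Chrna3 (-0.56 ± 0.15) and Chrnb4 (-1.02 ± 0.15), found in autonomic neurons, the glycine receptor subunit Glra1 (-0.51 ± 0.09) and the kainate subunit Grik3 (-0.32 ± 0.07). Voltage-gated channels rose in 9 of 23 members and fell in 1 (median 0.26), with 3 higher on log2(TPM + 0.1) and 5 higher and 2 lower without day 6 replicate 1. Beside them, 11.3% of all genes rose and 8.95% fell. Kcnd2, a potassium channel, was at 4.75, 5.19 and 5.35 TPM at day 7, against 2.04, 3.11 and 2.98 TPM at day 6 (log2 fold change 0.93 ± 0.20, adjusted p = 0.00065). Scn3b, a sodium channel subunit, rose by 0.42 ± 0.06 (adjusted p = 0.058 on log2(TPM + 0.1)).

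Motor neuron genes fell in part, the defining factors Isl1, Mnx1 and Lhx3 among them. Of 19 tested, 6 fell and 3 rose (median log2 fold change -0.14), beside 8.95% lower and 11.3% higher among all genes. The number that rose was 1 without day 7 replicate 1, without day 7 replicate 2 or without day 6 replicate 3. On log2(TPM + 0.1) it was 0. Isl1, which specifies motor neurons, was at 2.81, 4.38 and 3.51 TPM at day 7, against 4.5, 5.01 and 6.58 TPM at day 6 (log2 fold change -0.77 ± 0.16, adjusted p = 0.00042). Mnx1, the HB9 factor, was at 2.84, 2.87 and 2.2 TPM at day 7, against 3.45, 4.17 and 4.18 TPM at day 6 (log2 fold change -0.59 ± 0.11, adjusted p = 0.00026). Lhx3, partner of Isl1 in newborn motor neurons, was at 0.21, 0.25 and 0.45 TPM at day 7, against 0.88, 1.08 and 1.08 TPM at day 6 (log2 fold change -1.49 ± 0.26, adjusted p = 5.3e-05). In each, every day 7 library was below every day 6 library, and levels were low at both days. Chat, the enzyme that makes acetylcholine, was at 1.03, 1.13 and 1.43 TPM at day 7, against 1.3, 1.75 and 1.56 TPM at day 6 and did not pass (log2 fold change -0.34 ± 0.16, adjusted p = 0.13; adjusted p = 0.043 without day 7 replicate 3). Slc18a3, which loads acetylcholine into vesicles, fell by 0.55 ± 0.09 on the log2 scale. Ache, which breaks acetylcholine down, rose by 0.34 ± 0.09 (adjusted p = 0.38 on log2(TPM + 0.1)).

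Sim1, the factor of V3 interneurons, the ventral class that arises beside the floor plate, was at 42.6, 40.0 and 42.1 TPM at day 7, against 39.9, 40.8 and 52.4 TPM at day 6 (log2 fold change -0.09 ± 0.09, adjusted p = 0.56). With it, 0 of 13 ventral interneuron factors passed with edgeR over all libraries or with DESeq2, and 1 was lower at an unadjusted p under 0.05. With no filter on low counts, with only the 6 libraries or without day 6 replicate 1, 1 fell. Slc17a6, the glutamate transporter that V3 neurons use, was at 17, 17.8 and 17.3 TPM at day 7, against 11.1, 15.4 and 17.1 TPM at day 6 (log2 fold change 0.26 ± 0.13, adjusted p = 0.18), with day 6 replicate 3 within the day 7 range. Its relative Slc17a8 fell to 1.02, 1.05 and 1.59 TPM at day 7, against 3.73, 2.44 and 2.66 TPM at day 6 (log2 fold change -1.37 ± 0.18, adjusted p = 1.5e-06). Neurod2 and Neurod6, related bHLH factors of maturing neurons, rose together. Neurod2 was at 13.3, 14.9 and 13.5 TPM in the day 7 libraries, against 3.33, 3.97 and 5.85 TPM in the day 6 libraries (log2 fold change 1.68 ± 0.20, adjusted p = 1.2e-07). Neurod6 was at 5.26, 4.39 and 4.83 TPM at day 7, against 0.86, 0.77 and 1.78 TPM at day 6 (log2 fold change 2.09 ± 0.31, adjusted p = 0.00033), and DESeq2 gave it an adjusted p of 0.89. All day 7 values of both genes were above all day 6 values. Of 13 serotonergic neuron genes, 2 fell and 0 rose, and of 11 genes that make or carry transmitters, 1 rose and 2 fell. For these lists and the short ones that follow, the background is 11.3% higher and 8.95% lower among all genes. Of 12 genes of motile cilia, 1 fell, and of the 3 Onecut factors of early neurons, 0 were called with edgeR and 1 was lower at an unadjusted p under 0.05. Of the serotonergic genes 1 fell without day 7 replicate 3 or day 6 replicate 1 and 3 without day 7 replicate 1, and of the cilium genes 0 fell without day 7 replicate 1 or day 7 replicate 3. Of the transmitter genes 0 rose with DESeq2 or in each fit that left out 1 replicate other than day 6 replicate 3, and 1 fell without day 7 replicate 1, day 7 replicate 2 or day 6 replicate 1. Of the Onecut factors 1 fell without day 6 replicate 1. Of the 12 late temporal factors, 3 rose and 2 fell, and 0 fell without day 7 replicate 2 or without day 6 replicate 2 and 1 without day 7 replicate 1 or without day 6 replicate 3.

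Floor plate genes, of the cells at the ventral midline that secrete Sonic hedgehog, fell in 4 of 12 members with 0 higher (median log2 fold change -0.23). For both lists of this paragraph the background is 8.95% lower and 11.3% higher among all genes. Shh (chromosome 5, 28456815 to 28467256, minus strand) was at 324, 335 and 301 TPM in the day 7 libraries, against 440.2, 394 and 396 TPM in the day 6 libraries (log2 fold change -0.34 ± 0.08, adjusted p = 0.003; adjusted p = 0.15 on log2(TPM + 0.1)). Spon1, a secreted guidance protein, was at 487, 483 and 444 TPM at day 7, against 629, 689.9 and 678 TPM at day 6 (log2 fold change -0.48 ± 0.05, adjusted p = 5.8e-08). Slit2, a repellent, fell by 0.37 on the log2 scale. Day 7 libraries were below day 6 libraries in all 3. Foxa2, the factor that specifies floor plate, was at 159.8, 166 and 152 TPM at day 7, against 203, 171 and 162 TPM at day 6 (log2 fold change -0.12 ± 0.09, adjusted p = 0.4). Ntn1, netrin, averaged 1390.3 ± 53.6 TPM at day 7, against 1481 ± 22.9 TPM at day 6 (adjusted p = 0.44). Ventral progenitor factors fell in 5 of 11 members, a count that was 2 without day 7 replicate 1 and 3 without day 7 replicate 2, day 7 replicate 3, day 6 replicate 2 or day 6 replicate 3. It was also 3 with only the 6 libraries. Pax6 and Sp8 were among the 5, and neither passed with only the 6 libraries (adjusted p = 0.17 and 0.13) or with limma on log2(TPM + 1) (adjusted p = 0.94 and 0.17). Nkx6-1 fell by 0.30 ± 0.06 on the log2 scale, and Nkx2-2, of the V3 domain and of oligodendrocyte precursors, was at 203, 197 and 209 TPM at day 7, against 184, 211 and 228 TPM at day 6 (adjusted p = 0.81).

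Genes that respond to the 2 agents moved in both directions, beside 11.3% higher and 8.95% lower among all genes. In the Hedgehog pathway, 4 of 13 members fell and 2 rose, and 2 fell without day 7 replicate 1 or without day 6 replicate 1, while 1 rose without day 7 replicate 3, day 6 replicate 2 or day 6 replicate 3. Ptch1, the receptor that Hedgehog signalling induces, was at 121, 116 and 112 TPM at day 7, against 133, 143 and 159.6 TPM at day 6 (log2 fold change -0.33 ± 0.04, adjusted p = 1.2e-06). Gli1, a transcription factor that the same signal induces, was at 4.72, 3.76 and 4.93 TPM at day 7, against 3.33, 2.89 and 2.61 TPM at day 6 (log2 fold change 0.71 ± 0.15, adjusted p = 0.00062). The 2 targets moved in opposite directions without overlap. In the retinoic acid pathway, 4 of 14 members rose (2 on log2(TPM + 0.1)) and 4 fell. Cyp26b1, which degrades retinoic acid, was at 7.09, 7.73 and 7.44 TPM at day 7, against 2.84, 4.51 and 3.72 TPM at day 6 (log2 fold change 1.03 ± 0.16, adjusted p = 1.2e-05). Crabp1 and Crabp2, which carry it in the cytoplasm, fell by 0.45 and 0.57, and the receptor Rara by 0.29 on the log2 scale.

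In the BMP pathway 3 of 18 genes rose and 1 fell (2 without day 6 replicate 2 or day 6 replicate 3). The background for this list and for the FGF and Wnt lists below is 11.3% higher and 8.95% lower among all genes. No list was tested against it. The ligands Bmp4 and Bmp2 rose by 0.73 ± 0.17 and 0.70 ± 0.20 (log2). Nog, a secreted BMP inhibitor, was at 12.4, 10.9 and 11.5 TPM at day 7, against 23.3, 21.2 and 24 TPM at day 6 (log2 fold change -0.96 ± 0.10, adjusted p = 6.8e-09), with no overlap of days. The 4 Id genes in that list, which BMP signalling induces, had log2 fold changes of -0.16 to 0.14 and did not pass (lowest adjusted p = 0.14, for Id3). FGF feedback genes rose in 4 of 15 members and fell in 1, and 2 rose without day 7 replicate 3 or without day 6 replicate 2. Spry4, a feedback inhibitor, rose by 0.65 ± 0.12. Wnt feedback genes rose in 2 of 15 and fell in 3, with 0 higher without day 7 replicate 2 or without day 6 replicate 3, 1 higher without day 7 replicate 1 or without day 6 replicate 2, and 1 lower without day 7 replicate 1, without day 7 replicate 2 or without day 6 replicate 3.

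Glycolysis and hypoxia genes rose in 18 of 21 with 0 lower (median log2 fold change 0.42), and their summed level was 7277, 7296 and 6140.3 TPM at day 7, against 4544, 5382 and 5458 TPM at day 6. Ldha, lactate dehydrogenase, was at 1036, 1050.4 and 830.0 TPM at day 7, against 522, 668 and 688 TPM at day 6 (log2 fold change 0.66 ± 0.14, adjusted p = 0.00062). Slc16a3, which exports lactate, was at 135, 135 and 102 TPM at day 7, against 57.3, 79 and 81.1 TPM at day 6 (log2 fold change 0.82 ± 0.19, adjusted p = 0.0021; adjusted p = 0.067 on log2(TPM + 0.1)). Both were higher in every day 7 library, and for the summed level day 6 replicate 1 was the lowest of day 6 and day 7 replicate 3 the lowest of day 7. Pfkl and Eno1, enzymes of glycolysis, rose by 0.54 ± 0.09 and 0.50 ± 0.08 (log2). Genes of sterol synthesis rose in 14 of 22 members with 0 lower (median 0.21). Fdft1, squalene synthase, rose by 0.33 ± 0.04. At day 6 against day 5, 22 of the 22 sterol genes had fallen.

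Immediate early genes, which signals and neuronal activity switch on within minutes, rose in 7 of 17 members with 0 lower (median 0.38; 1 lower without day 6 replicate 1). Egr1 was at 26.5, 33.7 and 33.9 TPM at day 7, against 16.5, 13.9 and 13.5 TPM at day 6 (log2 fold change 1.12 ± 0.12, adjusted p = 1.2e-08). Fos was at 7.96, 10.3 and 8.72 TPM at day 7, against 5.82, 3.93 and 4.48 TPM at day 6 (log2 fold change 0.84 ± 0.15, adjusted p = 9.2e-05), both without overlap. Egr2 rose by 1.43 ± 0.35, did not pass on log2(TPM + 0.1) (adjusted p = 0.078) and was under 1 TPM on average at both days. How long cells stood between the last medium change and lysis is not given in the sources used here, and its part was not tested. Of 22 genes of the amino acid stress response, 2 rose and 2 fell (median 0.00), near the 11.3% and 8.95% of all genes. Without day 7 replicate 2 or day 6 replicate 1, 1 rose, and in each fit that left out 1 replicate other than day 6 replicate 3, 1 fell. The serine synthesis enzymes Psat1 and Phgdh went opposite ways, by 0.29 ± 0.06 and -0.35 ± 0.06. Interferon and antigen presentation genes fell in 4 of 10 with 0 higher, of which H2-K1 fell by 0.35 on the log2 scale, and the count was 2 without day 7 replicate 1 and 1 without day 7 replicate 2 or without day 6 replicate 1. Lysosome genes fell in 3 of 12 with 0 higher (1 without day 6 replicate 1), and the number that fell was 0 without day 7 replicate 3 or without day 6 replicate 1 and 1 without day 7 replicate 1 or without day 7 replicate 2.

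Genes of mesenchyme, the cells of connective tissue, rose beside the neural ones. Of 16 mesenchyme genes 12 rose and 0 fell (median log2 fold change 0.70), 7 rose without day 6 replicate 2, and no member was at 0 in all 6 libraries. Their summed level was 1096, 1202 and 1175 TPM at day 7, against 772, 676 and 633 TPM at day 6. Col1a1, a chain of type I collagen, was at 88.7, 94.2 and 86.1 TPM in the day 7 libraries, against 34.7, 44.6 and 32.9 TPM in the day 6 libraries (log2 fold change 1.27 ± 0.11, adjusted p = 4.4e-10). Col3a1, of type III collagen, was at 496, 527 and 464 TPM at day 7, against 323, 300.5 and 283 TPM at day 6 (log2 fold change 0.73 ± 0.09, adjusted p = 5.7e-07). Postn, a matrix protein of connective tissue, was at 37.6, 46.9 and 36.8 TPM at day 7, against 21.8, 18.6 and 17.4 TPM at day 6 (log2 fold change 1.14 ± 0.13, adjusted p = 4e-08). In these genes day 7 was above day 6 in all libraries. The smooth muscle genes Acta2 and Tagln were less even. Acta2 was at 52.4, 57.6 and 109 TPM at day 7, against 42.4, 27 and 24.3 TPM at day 6 (log2 fold change 1.24 ± 0.22, adjusted p = 8.1e-05), and its day 7 replicate 3 was the highest. The forkhead factor Foxc1 rose by 0.67 ± 0.14. Collagens and actin are made by more than 1 cell type, and the part of mesenchyme-type cells in the other rises was not tested.

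Of 16 endothelial genes, 0 were called with edgeR (median log2 fold change -0.31) and 4 were lower at an unadjusted p under 0.05, while 1 fell with DESeq2, 5 fell with no filter on low counts, 3 with only the 6 libraries and 2 without day 6 replicate 3. The summed level was 91.5 to 103 TPM at day 7 and 113 to 127 TPM at day 6, with no overlap, and no member was at 0 in all 6 libraries. Cdh5, the cadherin of vessels, averaged 15.9 ± 1.11 TPM at day 7, against 21.2 ± 1.27 TPM at day 6 (log2 fold change -0.40 ± 0.18, adjusted p = 0.13, and 0.0026 with only the 6 libraries). Blood and microglia genes were absent or nearly so, at 0.22 to 0.67 TPM in sum at day 7 and 0.14 to 0.66 TPM at day 6, with the embryonic globins Hba-x, Hbb-bh1 and Hbb-y and Gata1 at 0 in all 6 libraries. Endoderm and epithelium genes were at 20.3 to 29.5 TPM in sum at day 7 and 28.4 to 36.1 TPM at day 6. Of 8 tested, 2 fell and 0 rose, beside 8.95% lower and 11.3% higher among all genes. One was Cdh1, the epithelial cadherin (2.51, 1.33 and 1.75 TPM at day 7, against 4.93, 4.58 and 4.34 TPM at day 6; log2 fold change -1.38 ± 0.15). The other was Cldn6, a tight junction protein of embryonic epithelium and pluripotent cells (0.70, 0.30 and 0.30 TPM at day 7, against 1.58, 1.8 and 1.07 TPM at day 6; log2 fold change -1.71 ± 0.43). Their part in the neural results was not tested.

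Pluripotency genes were low at both days and fell, 10 of 12 with 0 higher (median log2 fold change -1.57). Their summed level was 14.5, 7.6 and 7.63 TPM at day 7, against 33.1, 27 and 28.5 TPM at day 6. Pou5f1, the Oct4 factor, was at 2.75, 0.82 and 0.43 TPM at day 7, against 4.55, 3.53 and 3.63 TPM at day 6 (log2 fold change -1.65 ± 0.31, adjusted p = 0.00017). Nanog was at 0.69, 0.52 and 0.57 TPM at day 7, against 2.19, 2.41 and 1.88 TPM at day 6 (log2 fold change -1.78 ± 0.21, adjusted p = 1.8e-07). Dppa5a, a marker of naive stem cells, was at 4.91, 2.24 and 1.98 TPM at day 7, against 16.1, 9.34 and 12.2 TPM at day 6 (log2 fold change -2.01 ± 0.29, adjusted p = 3.9e-06). No day 7 library reached a day 6 library in these genes, and day 7 replicate 1 had the highest sum of day 7. At the steps before, 6 of the 12 genes had risen and 1 had fallen at day 6 against day 5, after 8 had fallen at day 5 against day 4. The fall of Cdh1 and Cldn6, which stem cells also express, went with it, and the part of residual stem cells was not tested. Hox genes, which mark the position along the body axis, mostly did not pass: 1 of 12 tested genes of paralogue groups 1 to 4 rose and 2 fell, 0 of 11 of groups 5 to 8 rose and 2 fell, and 0 of 7 of groups 9 to 13 were called with edgeR or DESeq2, with 1 higher and 3 lower at an unadjusted p under 0.05. Without day 7 replicate 2, day 7 replicate 3 or day 6 replicate 1, 0 of groups 1 to 4 rose and 1 fell, and without day 6 replicate 3, 1 fell. In groups 5 to 8, 0 fell without day 7 replicate 1, without day 7 replicate 3 or on log2(TPM + 0.1), and 1 without day 7 replicate 2, day 6 replicate 1 or day 6 replicate 3. In groups 9 to 13, 3 fell with only the 6 libraries. Among all genes 11.3% rose and 8.95% fell. Hoxb1 fell by 1.19 ± 0.25 on the log2 scale, and Hoxb9 averaged 179 ± 12.5 TPM at day 7, against 237 ± 37.4 TPM at day 6 (log2 fold change -0.39 ± 0.16, adjusted p = 0.092, and 0.011 with only the 6 libraries).

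Of the 12 largest rises among genes with a clear level and no overlap, Bcas1, Gpr17, Myrf, Bcan, Neurod2 and Col1a1 are described above. The others were Cadps2, a protein of dense-core vesicle release (log2 fold change 1.69 ± 0.11), the smooth muscle actin Actg2 (1.46 ± 0.31), the cartilage collagen Col9a3 (1.38 ± 0.15), the collagen cross-linking enzyme Lox (1.35 ± 0.17), the small GTPase Rerg (1.34 ± 0.23) and the matrix signalling protein Ccn1 (1.31 ± 0.18). Cadps2 was at 10.9, 9.91 and 10.5 TPM at day 7, against 2.5, 4.15 and 4.06 TPM at day 6. Of the 12 largest falls, Cenpf, Hes5, Knstrn, Pttg1, Neurog3 and Dppa5a are described above. The others included Crp, C-reactive protein, at 3.96, 2.61 and 3.8 TPM at day 7, against 10.5, 10.4 and 10.8 TPM at day 6 (log2 fold change -1.59 ± 0.14, adjusted p = 9e-10). The neuropeptide Sst was at 2.9, 1.59 and 2.43 TPM at day 7, against 4.69, 6.02 and 5.45 TPM at day 6 (log2 fold change -1.19 ± 0.28, adjusted p = 0.0021). The long non-coding RNA Lockd, which lies next to the cell cycle inhibitor gene Cdkn1b, had a log2 fold change of -1.15 ± 0.14. Sst and Crp were lower in all day 7 libraries. Cox6c2, Snora73a and Mir546 completed the rule. Cox6c2 is annotated as a processed pseudogene, Snora73a lies within its host gene Snhg3 and Mir546 within Ctdsp2, so their values are uncertain. In Cox6c2 the call was lost at an adjusted p of 0.069 with limma on log2(TPM + 0.1), 0.11 without day 6 replicate 1, 0.12 without day 6 replicate 2, 0.1 without day 7 replicate 2 and 0.17 without day 7 replicate 3. Snora73a lost its call at 0.062 with DESeq2, 0.073 with no filter on low counts, 0.076 without day 6 replicate 1, 0.16 without day 6 replicate 2, 0.086 without day 7 replicate 1 and 0.12 without day 7 replicate 3. Mir546 lost its call at 0.062 with only the 6 libraries, 0.1 without day 6 replicate 1 and 0.096 without day 7 replicate 3.

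**Figure D4:**
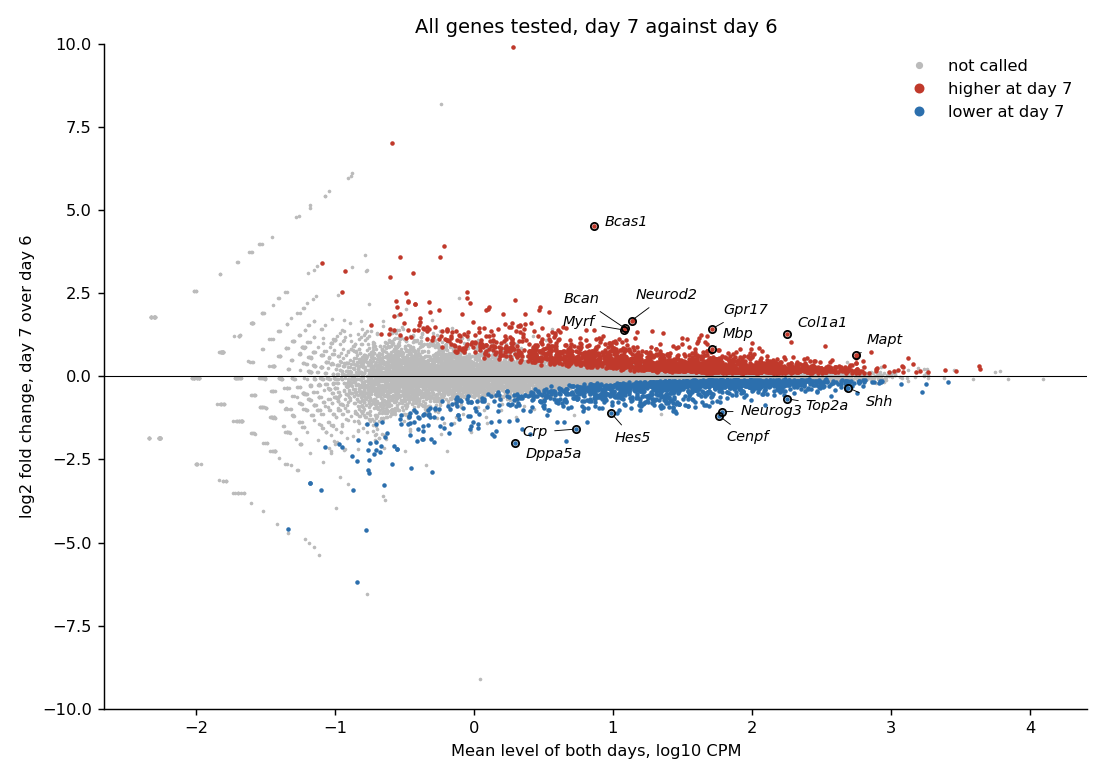
Log2 fold change of day 7 over day 6 (vertical axis) against the mean CPM of both days on a log10 scale (horizontal axis) for the genes tested that had counts at either day; red and blue points rose and fell at an adjusted p under 0.05. Bcas1 stands clear of genes at its level, most called genes lie within 2-fold, and at the left edge the fitted values of genes with no counts on 1 of the days depend on the prior count.

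Fewer genes were called over the last day than over either of the 2 days before it. At day 5 against day 4, 38% of genes changed, at day 6 against day 5, 50.5%, and at day 7 against day 6, 20.3%. Genes past 2-fold numbered 657 higher and 281 lower, then 930 and 367, then 184 and 112. The median absolute log2 fold change was 0.20, 0.27 and 0.13 over the 3 steps. Steps that share a day share its 3 libraries, so only day 7 against day 6 and day 5 against day 4, which share none, were tested against each other. The change differed between them in 3387 genes (18.8%), lower in the last step for 2162 (12%) and higher for 1225 (6.81%).

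By list, the median log2 fold changes over the 3 steps were -0.30, -0.83 and -0.78 for mitosis genes, -0.31, -0.95 and -0.29 for replication genes, and -0.67, -1.76 and -0.14 for motor neuron genes. For astroglial genes they were 0.80, 0.90 and 0.33, and for oligodendrocyte genes 0.26, 0.70 and 0.83. Floor plate genes had 0.69, 0.57 and -0.23, and Notch pathway genes -0.08, -0.06 and -0.36. These are descriptions of the lists and carry no test.

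**Figure D5:**
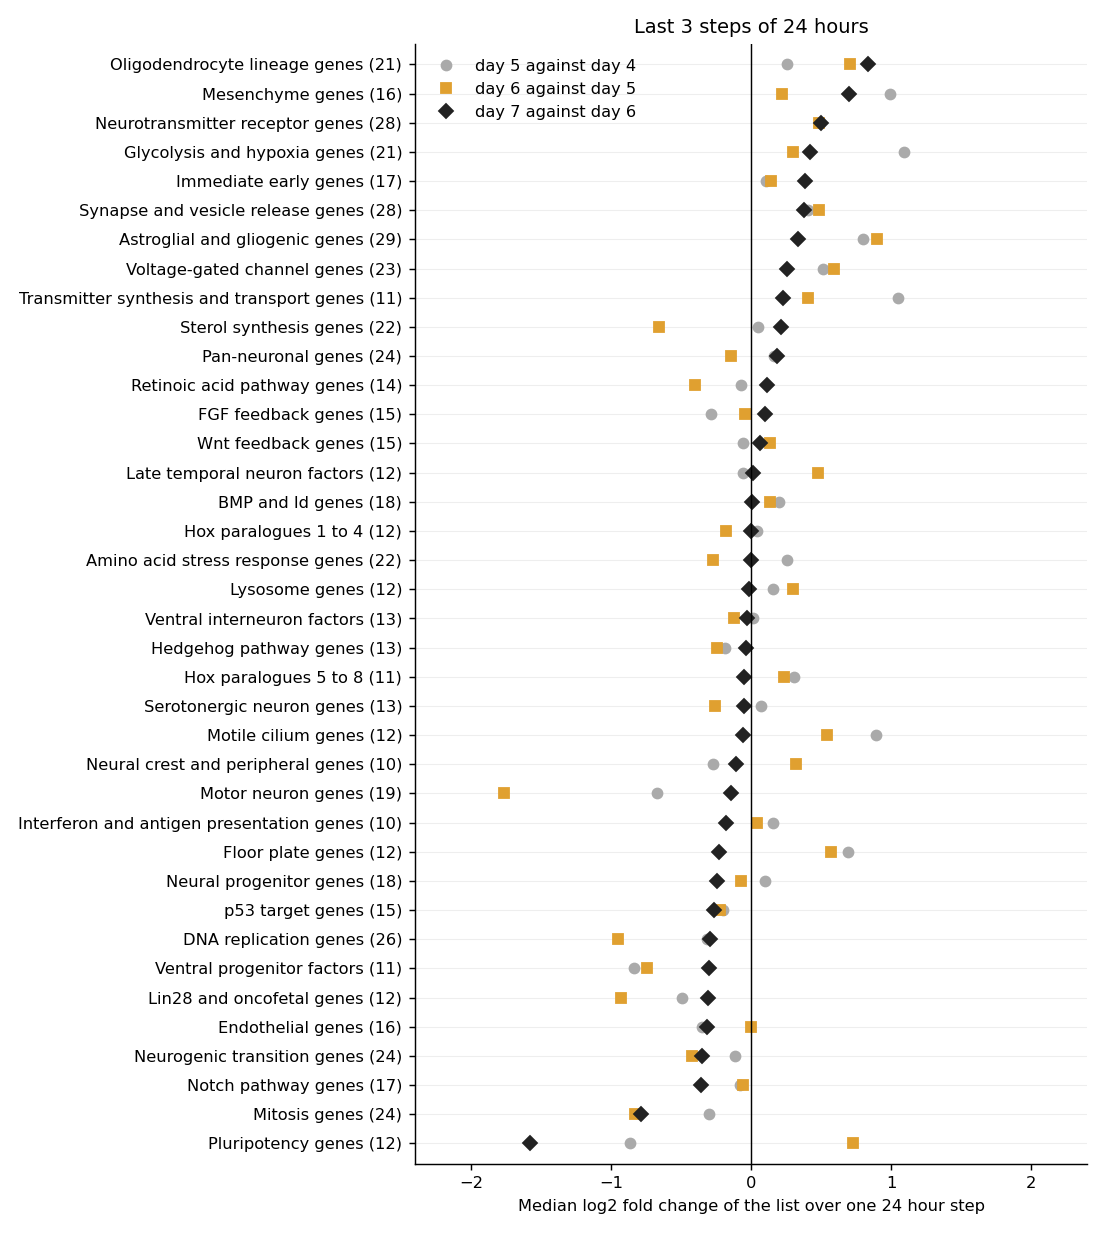
Median log2 fold change of each list with at least 10 tested members over the last 3 steps of 24 hours (circles, day 5 against day 4; squares, day 6 against day 5; diamonds, day 7 against day 6), ordered by the last step. Floor plate genes have positive medians in the 2 earlier steps and a negative one in the last, and motor neuron and sterol genes have their lowest median at day 6 against day 5.

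In 8 genes the difference between the last step and day 5 against day 4 was examined singly, with p adjusted over all genes. It was -1.20 ± 0.08 (log2) for Nfia (adjusted p = 1.4e-13), -0.63 ± 0.08 for Fabp7 (adjusted p = 1.1e-07) and -0.96 ± 0.12 for Shh (adjusted p = 2e-07), each of which had risen at day 5. It was 1.45 ± 0.16 for Olig2 (adjusted p = 2.4e-08), which had fallen by 1.31 at day 5. For Pdgfra it was 0.50 ± 0.19 (adjusted p = 0.057), for Isl1 0.44 ± 0.19 (adjusted p = 0.098), for Top2a -0.23 ± 0.09 (adjusted p = 0.054) and for Tubb3 0.13 ± 0.09 (adjusted p = 0.36), and these 4 did not pass.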

How the data were processed

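Polyadenylated RNA was sequenced in 36 libraries, 12 time points with 3 replicates each; the comparison used days 7 and 6, and days 5 and 4 beside them. Per the labels' protocols, extraction used the RNeasy Plus Micro kit (Qiagen) and library preparation KAPA mRNA. Per the submitters' processing notes, bcl2fastq 2.20.0 and RSEM were used with GRCm38. Aligner, annotation release and strand setting: not given in the sources used here. The authors deposited estimated counts (RSEM expected counts, 6.87% of them not whole). They also deposited abundances in TPM, with column sums of 999999.21 to 1000000.98. Of 51912 gene IDs, 51633 matched a symbol, with 99.925% of the counts.

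The expected counts were rounded and filtered with filterByExpr by time point, which kept 17990 of the 32047 genes with a count. All 36 libraries were fitted in 1 model with TMM factors of 0.924 to 1.06 and 24 residual degrees of freedom in edgeR 4.0.16 (glmQLFit and glmQLFTest, R 4.3.3). Adjusted p are Benjamini-Hochberg over all genes tested, from this fit unless another tool is named. The approximate standard error is the absolute log2 fold change over the root of F. The fit was tested on simulated data. All replicate pairs differed beyond sampling noise (chi-square over its degrees of freedom 4.31 to 36.6), and each library counted once. This does not show that the replicates were separate cultures. Without molecular identifiers, reads need not be separate molecules.

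The 42 gene lists, the comparison and the rules were chosen with earlier results of these data known. Of the 685 genes in the lists, 27 were in more than 1, so the counts of different lists are not fully separate. Named genes were a panel of 25, the 12 largest rises and 12 largest falls among called genes without overlap and with a mean of at least 5 TPM in the higher group (predicted genes left out), and up to 4 called members per list by p; others were named after their values were seen, and some that the rule gives are left out for length, and a few results are not reported here. Alternatives were DESeq2 1.42.0, scaling by median of ratios, no filter, only the 6 libraries compared, a replicate block, both of these together, limma 3.58.1 on log2(TPM + 1) or log2(TPM + 0.1), and each replicate left out. Coordinates are GENCODE M21 on GRCm38, counted from 1. By its exons, Aldh1l1, Elavl3, Igf2, Mir546, Mobp and Snora73a overlap a second gene in sense, and Ache, Bcas1, Bmp4, Ccne2, Cdc20, Cdkn1a, Cnp, Col9a3, Dll1, Fdft1, Gli1, Glra1, Gpr17, Grin1, Hes5, Hmga2, Igf2bp1, Knstrn, Lhfpl3, Lhx3, Lockd, Lox, Matn4, Mcm7, Neurog3, Nfia, Nfix, Nkx2-2, Notch1, Nrarp, Olig1, Pdgfra, Pou5f1, Prom1, Rab3a, Shh, Sox8, Tagln, Tfap2a and Tnr in antisense, so their values are uncertain.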

Additional observations from a re-analysis of the deposited data

Results flagged for a closer look

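The change over the last step differed from the change at day 5 against day 4 in 4 of the 8 genes examined, by the test of the difference itself in the fit over all genes. Nfia had a log2 fold change of 0.07 ± 0.05 at day 7 against day 6 and of 1.27 at day 5 against day 4, a difference of -1.20 ± 0.08 (adjusted p = 1.4e-13). Its mean level was 13.2, 36.4, 83.6 and 95.8 TPM at days 4, 5, 6 and 7. Fabp7 had 0.10 ± 0.05 and 0.73, a difference of -0.63 ± 0.08 (adjusted p = 1.1e-07). Shh had -0.34 ± 0.08 and 0.62, a difference of -0.96 ± 0.12 (adjusted p = 2e-07), and was highest at day 6 of the last 4 days. Olig2 had 0.14 ± 0.11 and -1.31, a difference of 1.45 ± 0.16 (adjusted p = 2.4e-08). Its mean level was 40.3, 15.9, 41.6 and 45.4 TPM at days 4, 5, 6 and 7, so the low point lay at day 5.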

How the results depend on the processing

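Median-of-ratios scaling changed no call among the named genes. Against 2034 higher and 1610 lower genes, DESeq2 gave 1971 and 1613 (16942 genes with an adjusted p), and leaving out each replicate gave 1455 to 1843 higher and 1175 to 1512 lower. On log2(TPM + 0.1) 1062 genes were higher. Of genes past 2-fold, 184 higher and 112 lower, 47 and 24 were left on log2(TPM + 1), a scale that shrinks low genes, and 73 fell 2-fold with only the 6 libraries compared, where 16228 genes were tested. Leaving out each replicate gave 144 to 187 and 93 to 117. Over all alternatives, calls at day 6 against day 5 ran from 7978 to 9063, and genes whose steps differed from 2330 to 3452. At day 5 against day 4 they were 5560 with only the libraries compared and a block, 5633 on log2(TPM + 0.1) and 6108 with only the libraries compared, against 6832. No replicate of days 5 or 4 was left out.

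Replicate numbers are in the labels without a shared animal, batch or day. Deviations of same-numbered day 7 and day 6 libraries correlated at 0.15, 0.29 and -0.14, and those of differently numbered libraries at -0.44 to 0.25. With 3 libraries a day, these values cannot settle whether the numbers pair the samples. With the replicate number as a block, 2021 genes were higher and 1582 lower, 180 and 108 past 2-fold.

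The sign of some genes that were not called turned round: over the fits without 1 replicate, log2 fold changes ran from -0.0923 to 0.0388 for Nkx2-2 and from -0.187 to 0.0588 for Sim1 (both positive without day 6 replicate 3), from -0.00494 to 0.165 for Elavl3 (negative without day 6 replicate 1), from -0.0259 to 0.110 for Cdc6 (negative without day 7 replicate 3) and from -0.0538 to 0.108 for Rfc3. Rfc3 was also at -0.0140 with only the 6 libraries and at -0.0102 with the block added, and Gfap at -0.0808 on log2(TPM + 1) and -0.332 on log2(TPM + 0.1). The cause was not tested. Genes under about 1 TPM, such as Mag, Mobp and Gfap, rest on few counts.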
